A study of Mus musculus with 9 samples.

Results

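The Bcl2 family decides whether a cell commits to death through its mitochondria. Bcl2, Bcl2l1, Mcl1 and Bcl2l2 encode guards that keep the outer mitochondrial membrane closed, Bax and Bak1 encode the effectors that open pores in it, and Bid, Bcl2l11, Bbc3 and Pmaip1 encode BH3-only proteins, the sensors that bind guards or activate effectors. Leukemic cells of the myeloid lineage commonly depend on guards such as Bcl2, the protein that the drug venetoclax inhibits, or Mcl1. The family was described here by its transcripts in mouse leukemias with and without Af10, the product of Mllt10 and a partner of Dot1l, which methylates histone H3.

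The members were taken as every probe set of an Affymetrix mouse array whose single annotated gene symbol was 1 of the 10 genes named above. This gave 31 probe sets for 9 genes out of 45101 probe sets and 18194 genes in all, and Bax was not analysed here. There were 9 arrays in 3 groups of 3. Af10 deleted leukemias (replicates 4, 5 and 6) were MLL-AF9 leukemias, homozygous for a floxed Af10 gene, whose cells had received a retroviral tdTomato vector with Cre recombinase. Af10 floxed leukemias (replicates 4, 5 and 6) carried the same fusion and the same floxed alleles and had received the tdTomato vector without Cre. Both were regrown in secondary recipient mice and sorted for tdTomato. Hoxa9-Meis1 leukemias (replicates 1, 2 and 3) were primary leukemias from bone marrow cells transduced with these oncogenes, used unsorted and with no floxed allele or vector named in their labels. All cells were freshly harvested bone marrow on a mixed C57/BL6 X 129 background, and the labels give no age and do not say whether each array stands for a separate primary leukemia. Cre itself was carried only by the deleted group, so its presence and the loss of Af10 cannot be told apart.

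Values are log2(intensity + 1), an error after ± is the SD of the 3 arrays in a group, and SE belongs to a fitted difference. A gene was represented by its brightest probe set and called at a limma adjusted p under 0.05 over all genes. The other probe sets of a gene carry an adjusted p from the same model fitted over all probe sets. Background was gauged from Y-linked probe sets, which lay between 2.97 and 4.71, and all 31 member probe sets were above that range on all 9 arrays. Array medians were 146 to 156 in linear intensity. Myeloid identity was present on every array, with Mpo (myeloperoxidase) at 13.69 to 14.26, Elane at 12.76 to 13.85 and the pan-leukocyte gene Ptprc at 11.91 to 12.57. Mllt10, the targeted gene, read 9.93, 9.89 and 10.19 in deleted leukemias, against 11.20, 10.49 and 11.18 in floxed and 10.93, 10.67 and 10.46 in Hoxa9-Meis1 leukemias, so its transcript was lower but still measured in the deleted group (difference from floxed -0.95, SE 0.21, limma adjusted p = 0.0293). The call did not hold when any 1 of deleted replicates 4 and 5 and floxed replicates 4 and 6 was dropped (highest limma adjusted p 0.09), nor in a fit of these 2 groups alone (0.0591). Whether the probe set lies in the deleted exons is not given in the sources used here.

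The 2 members that were lower in deleted than in floxed leukemias, Bcl2 and Bid, are shown first by the stretch that ends at the RefSeq transcript start of each, where their transcription begins. The stretches cover the 250 bases upstream of the start on the minus strand of build GRCm38.p6, at chr1:106714291-106714540 for Bcl2 and chr6:120916825-120917074 for Bid, written 5′ to 3′ with GGGCGG, the GC box bound by Sp1 family factors, in capitals on either strand.
Bcl2: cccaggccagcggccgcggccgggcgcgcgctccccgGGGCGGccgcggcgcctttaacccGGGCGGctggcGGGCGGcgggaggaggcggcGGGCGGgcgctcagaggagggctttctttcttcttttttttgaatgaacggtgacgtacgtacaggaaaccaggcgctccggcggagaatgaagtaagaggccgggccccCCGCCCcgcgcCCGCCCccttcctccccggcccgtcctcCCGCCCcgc
Bid: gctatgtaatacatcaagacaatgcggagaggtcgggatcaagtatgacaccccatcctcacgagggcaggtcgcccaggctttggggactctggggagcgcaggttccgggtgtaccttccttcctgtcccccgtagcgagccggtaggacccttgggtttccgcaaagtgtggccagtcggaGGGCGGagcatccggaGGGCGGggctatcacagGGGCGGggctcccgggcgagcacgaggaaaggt
The Bcl2 stretch held 7 GC boxes and 36 CpG dinucleotides at 74.8% G and C, and the Bid stretch held 3 GC boxes and 18 CpG dinucleotides at 63.6%. The medians over 32851 RefSeq promoters were 6 CpG dinucleotides and 52.4% G and C, and 32.7% of these promoters held a GC box. GC boxes were also found upstream of Mcl1, Bcl2l2, Bax, Bcl2l11 and Bbc3, that is in 7 of 9 family genes searched, or 10 of their 14 promoters, and not upstream of Bak1 or Bcl2l1. The letters TGACAG, a core bound by Meis factors, and TGATTNAT, an element bound by Hox and Pbx factors, were in neither stretch on either strand. They stood in 15.9% and 2.82% of all promoters. Bbc3 and Bcl2l1 were the family genes with TGACAG. The Pmaip1 promoter was not analysed here.

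The first comparison, of Af10 deleted with Af10 floxed leukemias, asks which family transcripts differ after Cre deletion of Af10. Of 9 measured members 2 were lower, Bcl2 among the guards and Bid among the BH3-only genes, and 0 were higher. Over all genes 3.63% were called lower, 3.22% higher and 6.85% in either direction. At an unadjusted limma p under 0.05 there were 3 members, the third being Bcl2l1, with a positive difference, against 22.1% of all genes. The median difference over the 9 members was 0.02, against 0.06 over all genes. At the level of single probe sets 7 were lower and 1 was higher out of 31, against 6.16% of all probe sets called in either direction.

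Bcl2, the founding guard of the family, read 9.24, 9.02 and 9.75 in deleted leukemias, against 11.48, 11.84 and 11.52 in floxed and 11.12, 11.38 and 10.92 in Hoxa9-Meis1 leukemias. Every deleted array lay below every floxed and every Hoxa9-Meis1 array, and the gap to the nearest of them was wider than the spread within any group. Group means were 9.34 ± 0.37 in deleted and 11.61 ± 0.20 in floxed leukemias (SD, n = 3 each), a fall of 4.84-fold (difference -2.28, SE 0.20, limma adjusted p = 0.000401). Each of the 5 Bcl2 probe sets passed, with differences of -2.79 to -2.02 and limma adjusted p of 0.000532 to 0.0213 when all probe sets were fitted. They followed each other across the 9 arrays (Pearson's r between pairs 0.86 to 0.99, a description over arrays that share the same groups). The probe set 1443837_x_at was the most uneven of the 5 in floxed leukemias, at 6.89 in replicate 4 and at 8.95 and 9.04 in replicates 5 and 6, and it was at 5.27, 5.04 and 6.18 in deleted leukemias.

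Bcl2 lies on chromosome 1, whose genes as a whole stood 0.13 above the array's centre (median of 1057 genes) in deleted replicate 6, the deleted array with the highest Bcl2 value. With every chromosome centred on each array the Bcl2 difference was -2.31 (limma adjusted p = 0.000175).

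**Figure D1:**
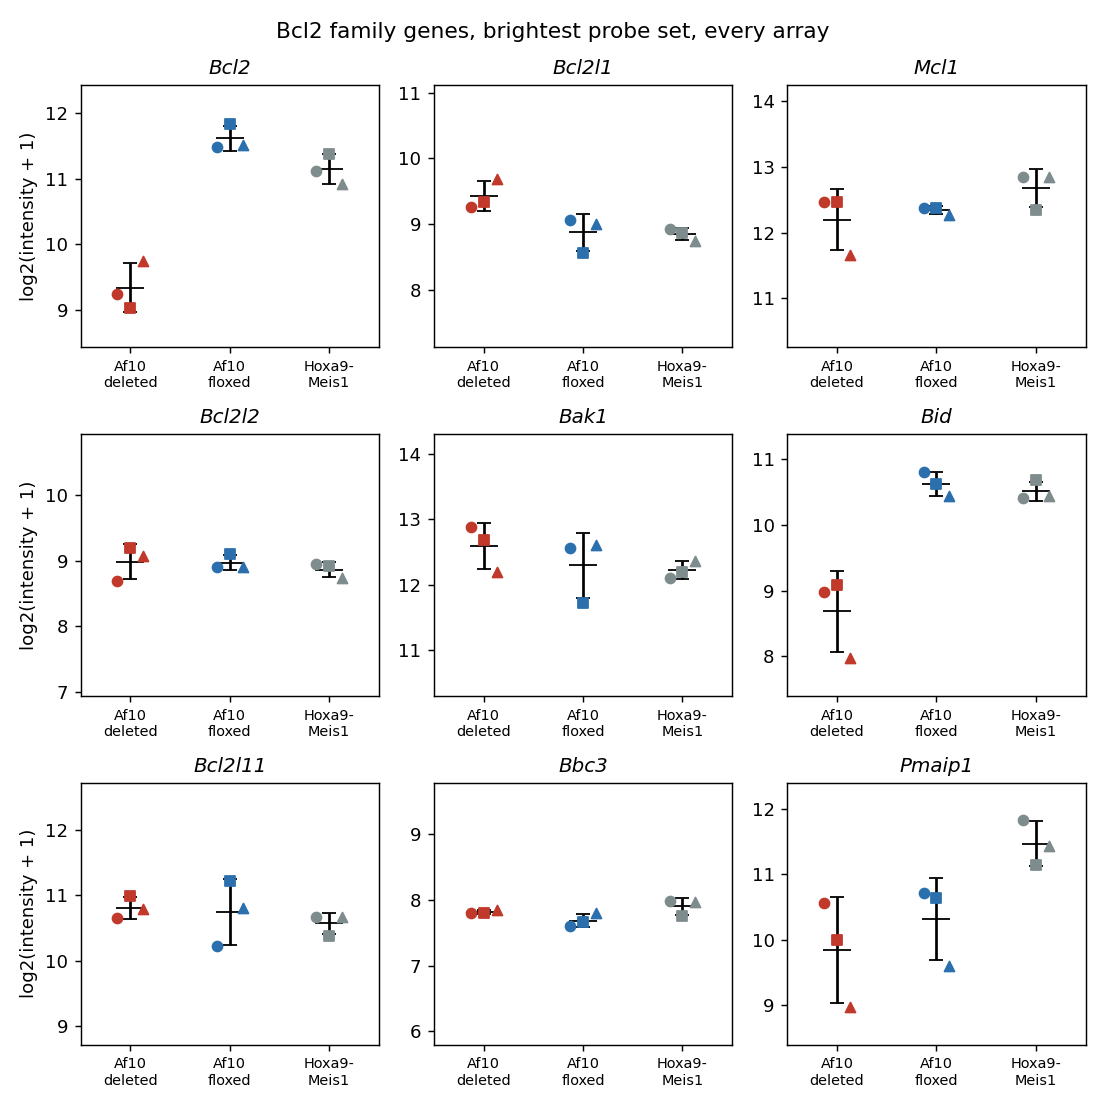
Level of each family gene on every array, log2(intensity + 1) of the brightest probe set on a span of 4 log2 units per panel, with deleted leukemias left, floxed leukemias in the middle and Hoxa9-Meis1 leukemias right. Circle, square and triangle mark the lowest, middle and highest replicate number of each group, the bar is the mean and the whiskers are SD. Bcl2 and Bid are lower in all 3 deleted leukemias than on any other array, and Pmaip1 is highest in Hoxa9-Meis1 leukemias.

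The other guards did not fall with Bcl2. Bcl2l1, which encodes Bcl-xL and, by alternative splicing, a shorter death-promoting form, read 9.26, 9.34 and 9.69 in deleted leukemias, against 9.06, 8.55 and 9.01 in floxed and 8.92, 8.87 and 8.74 in Hoxa9-Meis1 leukemias. The deleted arrays lay above the others without overlap, but the difference from floxed leukemias of 0.56 (SE 0.17, 95% interval 0.18 to 0.94) did not pass (limma adjusted p = 0.0848). Its probe sets disagreed in size. The probe set 1420887_a_at rose by 0.78, with 8.86, 9.45 and 9.55 in deleted against 8.67, 8.41 and 8.45 in floxed leukemias (limma adjusted p = 0.0368 over all probe sets), 1426191_a_at differed by 0.42 (limma adjusted p = 0.154), and the dim 1426050_at by 0.02. Bcl2l1 was called under none of 16 alternative settings of this comparison, with differences of 0.27 to 0.65.

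Mcl1, a short-lived guard that myeloid cells depend on, read 12.47, 12.46 and 11.66 in deleted leukemias, against 12.37, 12.38 and 12.27 in floxed leukemias. The groups overlapped, and the difference of -0.15 (95% interval -0.66 to 0.37, limma adjusted p = 0.756) did not pass. Deleted replicate 6 alone was low: it held the lowest value of all 9 arrays at 5 of 6 Mcl1 probe sets, and without it the difference was 0.12. Bcl2l2, which encodes the guard Bcl-w, read 8.69, 9.19 and 9.08 in deleted leukemias and 8.90, 9.10 and 8.90 in floxed leukemias (difference 0.02, 95% interval -0.32 to 0.35, limma adjusted p = 0.964). Its 4 probe sets differed by 0.02 to 0.26 and none passed. The interval for the brightest Bcl2l2 probe set excludes a change of its reading as large as that of Bcl2 in either direction. The 4 Bcl2l2 probe sets did not all follow each other across the 9 arrays (Pearson's r between pairs -0.17 to 0.80, as a description). Whether that reading follows the transcript was not tested.

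Among the death-promoting members Bid fell. Bid encodes a BH3-only protein that caspase-8 cleaves to carry the death receptor signal to mitochondria. It read 8.98, 9.09 and 7.97 in deleted leukemias, against 10.81, 10.63 and 10.44 in floxed and 10.42, 10.69 and 10.44 in Hoxa9-Meis1 leukemias, so the deleted group again lay wholly below both others. Means were 8.68 ± 0.62 in deleted and 10.63 ± 0.19 in floxed leukemias (SD, n = 3 each), a fall of 3.86-fold (difference -1.95, SE 0.27, limma adjusted p = 0.00361). The second probe set, 1448560_at, fell by 1.94 (limma adjusted p = 0.0187). The dimmer 1447873_x_at differed by -0.78 and did not pass (limma adjusted p = 0.0565), though its groups did not overlap. Deleted replicate 6 was the lowest of all 9 arrays at all 3 Bid probe sets, and without it the difference was -1.59 (limma adjusted p = 0.00122).

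**Figure D2:**
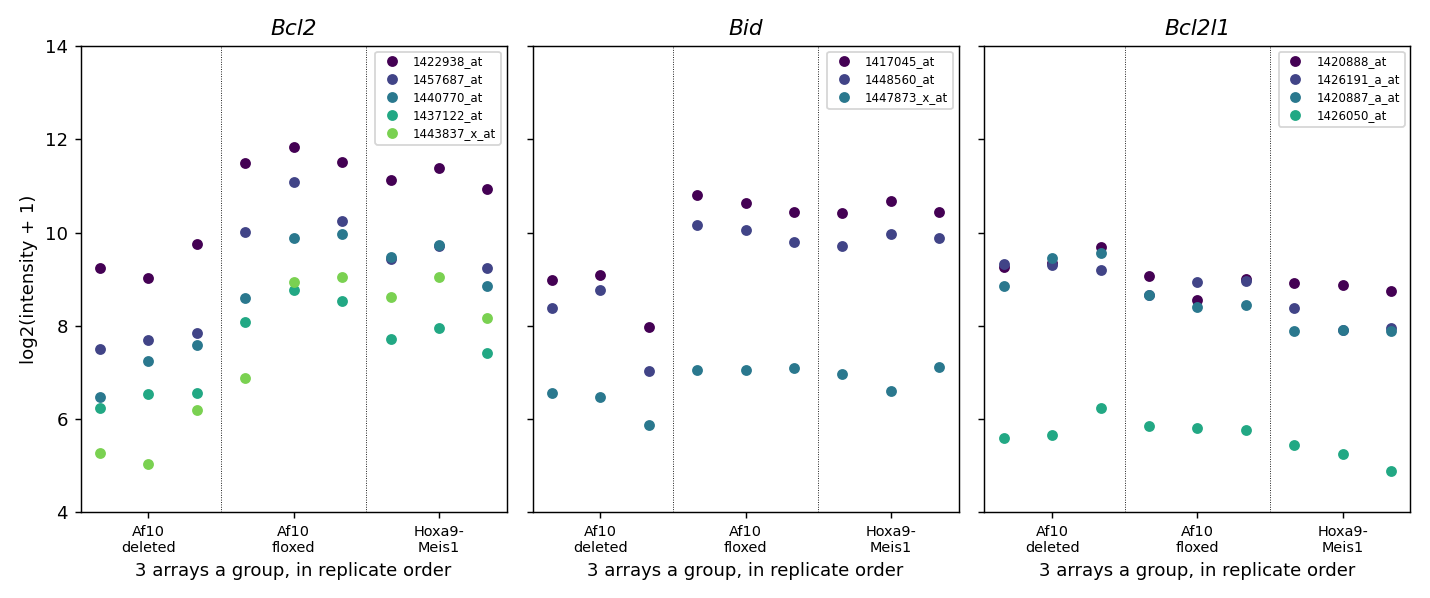
Each point is 1 array at 1 probe set of Bcl2, Bid or Bcl2l1, log2(intensity + 1), with deleted, floxed and Hoxa9-Meis1 leukemias from left to right and replicates in number order. All 5 Bcl2 and all 3 Bid probe sets are lower in deleted than in floxed leukemias, and the 3 brighter Bcl2l1 probe sets are higher in deleted leukemias, where 1 of them passed the test.

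The remaining death genes did not pass in this comparison. Bak1, an effector, read 12.88, 12.69 and 12.20 in deleted leukemias and 12.56, 11.73 and 12.61 in floxed leukemias (difference 0.29, 95% interval -0.29 to 0.86, limma adjusted p = 0.554). Floxed replicate 5 was the low array of that group at both Bak1 probe sets, and without it the difference was nearly nil at 0.0037. Bcl2l11, which encodes Bim, read 10.64, 10.98 and 10.78 in deleted leukemias and 10.22, 11.22 and 10.80 in floxed leukemias by its brightest probe set, with full overlap (difference 0.06, 95% interval -0.46 to 0.58, limma adjusted p = 0.909).

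The 5 Bcl2l11 probe sets did not read alike. Pairs of them correlated between -0.43 and 0.62 across the 9 arrays, whereas pairs of Mcl1 probe sets correlated between 0.762 and 0.997, as a description over arrays that share their groups. The difference between deleted and floxed leukemias ran from 0.06 to 1.01 over the 5 sets. The widest was 1456006_at, at 8.63, 8.72 and 8.01 in deleted and 7.34, 6.98 and 8.01 in floxed leukemias (limma adjusted p = 0.141).

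Bbc3, the p53-induced gene of Puma, had a narrow spread, at 7.79, 7.79 and 7.85 in deleted and 7.60, 7.67 and 7.79 in floxed leukemias (difference 0.13, 95% interval -0.12 to 0.37, limma adjusted p = 0.546). Pmaip1, the gene of Noxa, a sensor that binds Mcl1, had the widest, at 10.56, 10.001 and 8.97 in deleted and 10.72, 10.64 and 9.60 in floxed leukemias (difference -0.48, 95% interval -1.43 to 0.48, limma adjusted p = 0.555). Bbc3 and Pmaip1 each had 1 probe set. The interval for Bbc3 leaves room only for small changes of the probe set reading, while that for Pmaip1 leaves room for a fall of more than 2-fold. The Bbc3 reading was identical on deleted replicates 4 and 5 and floxed replicate 6, with 7 distinct values on 9 arrays. Whether it follows the transcript at this level was not tested.

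**Figure D3:**
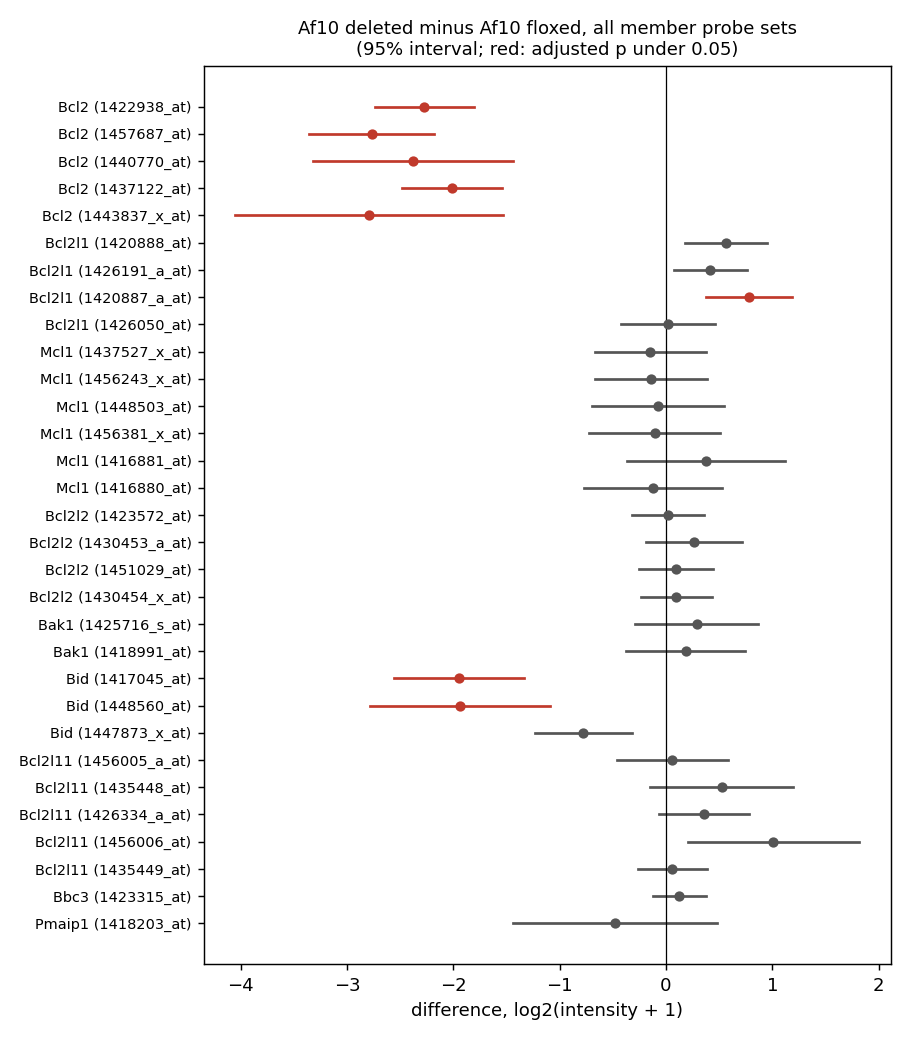
Difference of Af10 deleted minus Af10 floxed leukemias for all 31 member probe sets, as points with 95% intervals on the log2(intensity + 1) scale, with those at a limma adjusted p under 0.05 over all probe sets in red. All 5 Bcl2 probe sets and 2 of 3 Bid probe sets lie below 0 and passed, and 1 of 4 Bcl2l1 probe sets lies above 0 and passed.

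Further genes of the death pathway were read list by list, beside 22.1% of all genes with an unadjusted limma p under 0.05. Of 12 further Bcl2 family genes, among them Bad, Bmf, Bik, Hrk, Bok and Bnip3, 0 passed in limma and 2 had an unadjusted p under 0.05, with a median difference of 0.03. Of 15 caspases, apoptosome and mitochondrial factors 0 passed and 4 had such a p (median -0.06). The counts were 0 and 1 of 7 inhibitor of apoptosis proteins (median -0.26) and 0 and 2 of 17 regulators of BH3-only genes and of Mcl1 turnover (median 0.03). Of 10 death receptor pathway genes 1 fell, the ligand gene Tnfsf10 (TRAIL), with means of 6.65 ± 0.06 in deleted and 7.73 ± 0.29 in floxed leukemias (SD, n = 3 each; limma adjusted p = 0.0295), and 6 had an unadjusted p under 0.05 (list median 0.33, 8 of 10 differences positive). The widest difference in that list was that of the death receptor gene Fas, which did not pass, with means of 7.22 ± 0.54 in deleted and 5.79 ± 0.22 in floxed leukemias (difference 1.44, limma adjusted p = 0.0811). Fas was singled out after its values were seen. Leaving out any 1 deleted array, or floxed replicate 5 or 6, ended the Tnfsf10 call (highest limma adjusted p 0.107). Of 18 p53 targets outside the family 3 rose, 0 fell and 6 had an unadjusted p under 0.05 (median 0.15, 11 differences positive and 7 negative). Perp averaged 8.22 ± 0.66 in deleted and 4.57 ± 0.73 in floxed leukemias, a floxed mean within the background range. Gadd45a averaged 11.33 ± 0.41 and 9.57 ± 0.53, and Zmat3 8.37 ± 0.15 and 7.20 ± 0.35, in that order. Sesn1, named after its values were seen, differed by -1.45 and did not pass (limma adjusted p = 0.0597). Fas is in this list too. The p53-induced family members Bbc3 and Pmaip1 were not among the genes that passed.

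Markers of myeloid and other cells were measured beside these values, since lymphocytes and monocytes also express Bcl2 family genes. Over all genes 3.22% were called higher, 3.63% lower and 22.1% had an unadjusted limma p under 0.05. Of 10 T and NK cell markers 3 rose (Cd3e, Klrd1 and Gzma), 9 had positive differences, 8 had an unadjusted p under 0.05 and the median difference was 0.49. Their summed linear intensity was 1610 to 3737 in deleted and 2315 to 5020 in floxed leukemias, a sum that includes the bright Nkg7, the single marker with a negative difference (-1.34, limma adjusted p = 0.227). Without Nkg7, left out after its values were seen, the sum was 970 to 1049 in deleted and 590 to 699 in floxed leukemias. The floxed means of the called markers Klrd1 (4.18) and Gzma (4.49) lay within the Y-linked background range. Of 9 B cell markers 1 fell (Cd79b), 6 had an unadjusted limma p under 0.05 and 6 had positive differences. The B cell sums were 4070 to 10254 in deleted and 4756 to 8229 in floxed leukemias. Of 9 monocyte and macrophage markers 1 rose, F13a1 (difference 1.06), and 3 fell, Ly86 (-2.93), Irf8 (-1.88) and Ccr2 (-1.71). An unadjusted limma p under 0.05 was found for 5 of these 9 markers. Their sums were 23338 to 31426 in deleted and 23990 to 32301 in floxed leukemias. These sums include the bright Lyz2 (difference 0.35, limma adjusted p = 0.467). Of 9 late neutrophil markers 1 rose and 2 had such a p. The neutrophil sums were 88945 to 115838 in deleted and 61793 to 104366 in floxed leukemias. Of 8 leukocyte and myeloid markers 0 passed, 3 had such a p and 7 differences were positive (median 0.50). Of 8 erythroid markers 1 fell, Rhd (-1.10), and of 9 stroma and endothelium markers 1 fell, Pecam1 (-2.12). Of 8 mast cell, basophil and eosinophil markers 0 passed. None of these marker genes was within the Y-linked background range on all 9 arrays, which does not show that each was expressed. Of all probe sets 32.4% held the same value on 2 or more arrays. Cd4, for example, read an identical value (6.93) in deleted replicate 5 and floxed replicate 4. The part of these markers in the differences of Bcl2 and Bid was not tested. In such bulk samples fewer cells of a type and less RNA per cell cannot be told apart.

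The comparisons with Hoxa9-Meis1 leukemias ask how the family differs from leukemias driven by these oncogenes directly. Both use the same 3 Hoxa9-Meis1 arrays. In them the oncogene cannot be told apart from sorting, the vector, the transplant generation and the floxed Af10 alleles. For deleted leukemias it also cannot be told apart from Cre and the loss of Af10. Between Af10 deleted and Hoxa9-Meis1 leukemias 4 of 9 members were called, Bcl2, Bid and Pmaip1 lower and Bcl2l1 higher, against 15.5% of all genes called in either direction, 6.23% lower and 9.27% higher. Between Af10 floxed and Hoxa9-Meis1 leukemias 0 of 9 were called by limma and 2 had an unadjusted p under 0.05 (23.9% of all genes had one), against 8.89% of all genes called, 5.58% higher and 3.31% lower. The median difference over the members was -0.09 for deleted leukemias (0.05 over all genes) and 0.08 for floxed leukemias (-0.01 over all genes). At the level of single probe sets, 3 were higher and 8 lower of 31 for deleted leukemias, against 15.0% of all probe sets called, and 2 were higher and 1 lower for floxed leukemias, against 9.01%.

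Bcl2 averaged 9.34 ± 0.37 in deleted and 11.14 ± 0.23 in Hoxa9-Meis1 leukemias (SD, n = 3 each), a fall of 3.49-fold (difference -1.80, SE 0.20, limma adjusted p = 0.000646), and all 5 of its probe sets passed. Floxed leukemias had 11.61 ± 0.20, which was 0.47 above Hoxa9-Meis1 leukemias (SE 0.20, limma adjusted p = 0.2), and 1 of the 5 probe sets, 1457687_at, passed at a difference of 0.99 (limma adjusted p = 0.0461 over all probe sets). The other probe sets ran from -0.32 to 0.77. By the means of the brightest probe set the order was floxed, Hoxa9-Meis1, deleted, and the first and second did not differ past the threshold there. At 1443837_x_at floxed leukemias averaged 8.29, below the 8.61 of Hoxa9-Meis1 leukemias. Deleted leukemias were below both other groups at all 5 probe sets. Bid averaged 8.68 ± 0.62 in deleted and 10.51 ± 0.15 in Hoxa9-Meis1 leukemias (SD, n = 3 each), 3.56-fold lower (difference -1.83, SE 0.27, limma adjusted p = 0.00254). Bid in floxed leukemias differed from Hoxa9-Meis1 leukemias by 0.12 (95% interval -0.49 to 0.72, limma adjusted p = 0.848).

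Pmaip1 was at 10.56, 10.001 and 8.97 in deleted and 10.72, 10.64 and 9.60 in floxed leukemias, against 11.83, 11.14 and 11.43 in Hoxa9-Meis1 leukemias, which lay above both MLL-AF9 groups without overlap. It was 3.08-fold lower in deleted leukemias (difference -1.62, SE 0.42, limma adjusted p = 0.0318), and in floxed leukemias the difference was -1.15 (95% interval -2.10 to -0.20, limma adjusted p = 0.132). The call for deleted leukemias was lost without deleted replicate 5 or 6 or any 1 Hoxa9-Meis1 array, with limma adjusted p of 0.0585 to 0.114, and without deleted replicate 6 the difference was -1.19. Over all 15 alternative settings of this comparison, Pmaip1 was called in 9. Mcl1, the guard that Noxa binds, had differences in the same direction that did not pass: -0.49 for deleted (limma adjusted p = 0.204) and -0.34 for floxed leukemias (limma adjusted p = 0.422). At 1416881_at Mcl1 was at 12.84, 11.98 and 12.65 in Hoxa9-Meis1 leukemias, and floxed leukemias read 11.79, 10.88 and 11.48, below all of them (difference -1.11, limma adjusted p = 0.0707 over all probe sets).

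Bcl2l1 depended on the probe set. By the brightest one it was at 9.43 ± 0.23 in deleted and 8.85 ± 0.09 in Hoxa9-Meis1 leukemias (SD, n = 3 each; difference 0.59, SE 0.17, limma adjusted p = 0.0447), and that call was lost without any 1 of the 6 arrays (limma adjusted p 0.0614 to 0.126), with quantile normalization (0.0743) and with a trended robust fit (0.0589). The sets 1426191_a_at and 1420887_a_at rose more, by 1.19 and 1.40 (limma adjusted p = 0.00135 and 0.00133 over all probe sets). At 1420887_a_at deleted leukemias read 8.86, 9.45 and 9.55 and Hoxa9-Meis1 leukemias 7.88, 7.91 and 7.88. In floxed leukemias the brightest set differed from Hoxa9-Meis1 leukemias by 0.03 (limma adjusted p = 0.949) whereas 1426191_a_at rose by 0.78 (limma adjusted p = 0.0161). With the mean of the 4 probe sets in place of the brightest, Bcl2l1 was higher by 0.95 in deleted (limma adjusted p = 0.00148) and by 0.51 in floxed leukemias (limma adjusted p = 0.038), and deleted exceeded floxed leukemias by 0.44 (limma adjusted p = 0.0721).

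**Figure D4:**
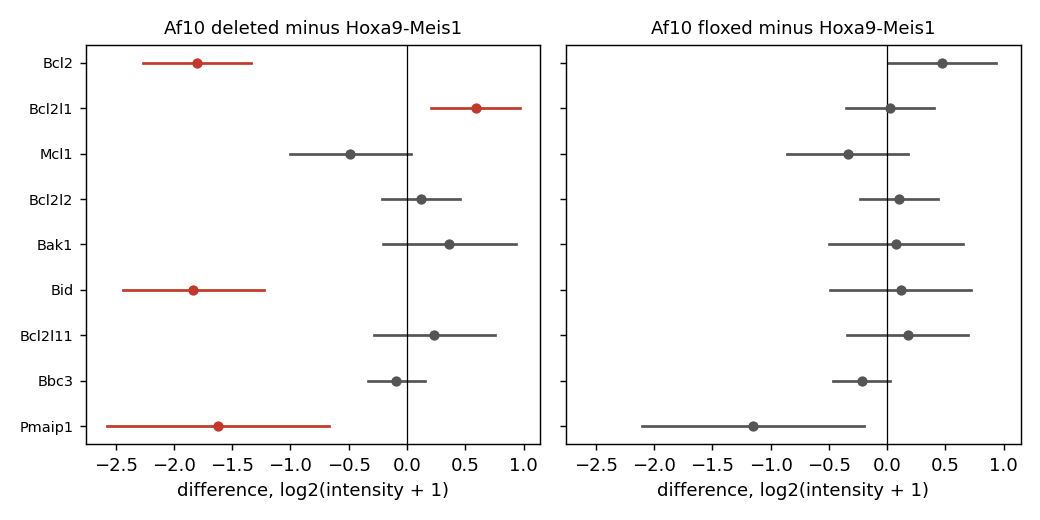
Differences of Af10 deleted (left) and Af10 floxed (right) minus Hoxa9-Meis1 leukemias for the 9 genes by their brightest probe set, as points with 95% intervals on the log2(intensity + 1) scale, with limma adjusted p under 0.05 in red. Both panels share the same 3 Hoxa9-Meis1 arrays. Bcl2, Bid and Pmaip1 are below 0 and Bcl2l1 above 0 in deleted leukemias, and 0 genes passed in floxed leukemias.

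The remaining members did not pass against Hoxa9-Meis1 leukemias by their brightest probe sets. Bak1 differed by 0.36 in deleted and 0.08 in floxed leukemias, and its second set, 1418991_at, at 12.22, 12.07 and 11.53 in deleted, 12.02, 11.24 and 12.00 in floxed and 11.02, 11.01 and 11.32 in Hoxa9-Meis1 leukemias, differed by 0.83 in deleted (limma adjusted p = 0.0552 over all probe sets) and 0.64 in floxed leukemias (limma adjusted p = 0.154). Bcl2l11 was lower by 1 of its 5 sets, 1426334_a_at, in floxed leukemias, where it read 8.54, 8.08 and 8.67 against 9.45, 9.04 and 9.17 in Hoxa9-Meis1 leukemias (difference -0.79, limma adjusted p = 0.0328 over all probe sets). The brightest Bcl2l11 set differed by 0.18 in the opposite direction. Bcl2l2 differed by 0.12 and 0.10 and Bbc3 by -0.09 and -0.22 in deleted and floxed leukemias in that order.

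The wider pathway differed from Hoxa9-Meis1 leukemias at single genes. Of 12 further Bcl2 family genes limma called 0 in deleted leukemias, where 5 had an unadjusted p under 0.05 against 28.7% of all genes, and 0 in floxed leukemias, where 0 had such a p against 23.9% of all genes. In deleted leukemias such a p was also found for 3 of 15 caspases, apoptosome and mitochondrial factors, 3 of 7 inhibitor of apoptosis proteins, 3 of 10 death receptor genes, 3 of 17 regulators and 9 of 18 p53 targets. In floxed leukemias the counts for these lists were 7 of 15, 2 of 7, 2 of 10, 5 of 17 and 9 of 18. Birc5 (survivin), an inhibitor of apoptosis protein needed in mitosis, rose 1.75-fold in deleted (11.37 ± 0.04 against 10.56 ± 0.30, limma adjusted p = 0.00676) and 2.19-fold in floxed leukemias (11.69 ± 0.05, limma adjusted p = 0.00242), the only one called of 7 such genes in both. Of 15 caspases, apoptosome and mitochondrial factors 2 rose in deleted leukemias, Casp9, the initiator caspase of the apoptosome (by 0.93, limma adjusted p = 0.00751), and Diablo, an antagonist of inhibitor of apoptosis proteins (by 0.79, limma adjusted p = 0.0119). In floxed leukemias Casp2 and Diablo rose, by 0.85 and 0.80, and Htra2 fell by 0.60. Leaving out 1 array ended the Casp2 and Htra2 calls for 5 of 6 arrays each, all but Hoxa9-Meis1 replicate 3 for Casp2 and all but floxed replicate 6 for Htra2 (limma adjusted p up to 0.118 and 0.132). It ended that of Diablo in floxed leukemias without floxed replicate 6 or Hoxa9-Meis1 replicate 1 or 2 (up to 0.0766), and in deleted leukemias without Hoxa9-Meis1 replicate 1 (0.0524).

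Of 10 death receptor pathway genes, Tnfsf10 fell by 1.30 and the adaptor genes Fadd and Tradd rose by 0.50 and 0.51 in deleted leukemias, while limma called 0 in floxed leukemias, where 2 had an unadjusted p under 0.05. The Fadd call was lost without deleted replicate 5 or 6 or Hoxa9-Meis1 replicate 1 or 3 (limma adjusted p up to 0.0877), and the Tradd call without deleted replicate 5 or Hoxa9-Meis1 replicate 1 or 2 (up to 0.0705). Of 17 regulators of BH3-only genes and of Mcl1 turnover 2 fell in both MLL-AF9 groups: Pim2, a survival kinase gene, averaged 7.91 ± 0.18 in deleted and 7.91 ± 0.42 in floxed leukemias, against 11.27 ± 0.10 in Hoxa9-Meis1 leukemias (10.3-fold lower in each), and Ddit3, the stress factor gene Chop, fell by 1.18 in deleted and by 1.48 in floxed leukemias.

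Of 18 p53 targets outside the family, 4 rose in deleted leukemias against Hoxa9-Meis1 leukemias, by 4.06 for Perp, 0.98 for Zmat3, 0.76 for Ei24 and 0.69 for Aen. In floxed leukemias 2 rose and 3 fell, with Gadd45b (-2.52), Btg2 (-2.17), Gadd45a (-1.61) and Phlda3 (1.05) the largest. The Perp mean in Hoxa9-Meis1 leukemias (4.16) lay within the background range. Leaving out 1 array ended the calls of Aen without Hoxa9-Meis1 replicate 2 (limma adjusted p = 0.0584), of Gadd45a without Hoxa9-Meis1 replicate 1 (0.0533), of Btg2 without floxed replicate 5 or Hoxa9-Meis1 replicate 1 (up to 0.0621), of Gadd45b without floxed replicate 6 or any 1 Hoxa9-Meis1 array (up to 0.119), and of Phlda3 without any array but floxed replicate 5 (up to 0.0915).

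Marker lists of several cell types held called genes in these comparisons. Over all genes 9.27% were called higher and 6.23% lower in deleted leukemias, and 5.58% and 3.31% in floxed leukemias. An unadjusted limma p under 0.05 was found for 23.9% of all genes in floxed leukemias. Of 10 T and NK cell markers 4 were higher in deleted leukemias (median 0.49) and 0 passed in limma in floxed leukemias, where 0 had an unadjusted p under 0.05. In deleted leukemias 2 of 9 late neutrophil markers and 1 of 9 B cell markers were higher, and 2 of 9 monocyte and macrophage markers were lower (median -0.46). In floxed leukemias 2 of 8 leukocyte and myeloid markers, Cebpa and Csf3r, and 1 of 9 monocyte and macrophage markers were lower, and 1 of 9 B cell markers was higher. Of 8 mast cell, basophil and eosinophil markers 3 were lower in deleted and 3 in floxed leukemias, and their summed linear intensity was 1393 to 2476 in deleted and 1832 to 2917 in floxed leukemias, against 3208 to 14322 in Hoxa9-Meis1 leukemias. None of these markers was within the Y-linked background range on all 9 arrays, which does not show that each was expressed. Their part in the differences of Bcl2, Bid, Bcl2l1 and Pmaip1 was not tested.

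The profiles most like those of Bcl2 and Bid over the 9 arrays were sought among 6138 genes above background with a range of at least 1 (log2). For Bcl2 they were Psmb9, an immunoproteasome subunit gene (Pearson's r 0.988), Map7d2 (0.978), the cytidine deaminase gene Apobec3 (0.978), the nucleosome-binding protein gene Hmgn3 (0.976) and Pdk3, a pyruvate dehydrogenase kinase gene (0.975). For Bid they were Zc3h7b (0.994), the ketone body enzyme gene Oxct1 (0.980), Zbed3 (0.977), the endosomal sorting gene Stam (0.977) and Zfp608 (0.974). These are descriptions over arrays that share 3 groups, and all 10 genes were themselves called lower in deleted than in floxed leukemias. The falls ranged from 0.81 for Stam to 5.07 for Hmgn3 on the log2 scale.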

How the data were processed

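Biotinylated cRNA of freshly harvested bone marrow was hybridised to 9 arrays, 1 per RNA sample. The deposited table holds linear intensity values, made by the authors with RMA per the submitters' processing notes; their software version is not stated there. RMA forces the arrays towards 1 distribution, so a shift of most genes one way would be removed. The number of arrays limits the precision, and depth does not apply. Log2(value + 1) was taken, so changes of dim probe sets are slightly understated. Probe sets were named by the platform annotation (34958 with 1 symbol, 932 with several, 9211 not listed). For each of 18194 genes the brightest probe set by its 9-array mean was taken. A model with a mean per group was fitted to the 9 arrays with limma 3.58.1 (lmFit and eBayes, R 4.3.3), two-sided, with Benjamini-Hochberg adjustment over all genes or, separately, over all 45101 probe sets. Simulated data took the 9-array mean and the spread within the 3 groups of each of 18194 genes. In them 200 genes with means above background were changed in the deleted arrays, fewer than the 1246 called in the data. Between deleted and floxed arrays, 48% of 100 genes changed 2-fold and 90% of 100 changed 4-fold were recovered. In the same simulation 12 unchanged genes were called. Nothing says that arrays stand for separate primary leukemias, so p-values reflect only the spread between these samples, perhaps a technical one. No 2 arrays were duplicates (smallest mean absolute difference 0.22 log2). Replicate numbers 4 to 6 come from the labels, and Hoxa9-Meis1 arrays were numbered in accession order. The members, lists and tests were chosen with earlier results of these data known. Genes named are all members, in each pathway list up to 4 called genes per comparison by size of difference, and the 5 genes most correlated with each member called between deleted and floxed leukemias. Mllt10 was named as the targeted gene. Alternatives were quantile normalization, a pseudocount of 32, a filter on dim genes, the mean of probe sets, fits of 2 groups, array weights, a trended robust fit, chromosome centring, the replicate number as a block and leaving out arrays. Promoter stretches are from RefSeq, build GRCm38.p6.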

Additional observations from a re-analysis of the deposited data

How the results depend on the processing

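Bcl2 and Bid were called lower in deleted leukemias under all 16 alternatives against floxed and all 15 against Hoxa9-Meis1 leukemias; the Bcl2 difference from floxed leukemias ran from -2.48 to -2.12 and that of Bid from -2.15 to -1.55. The number of members called between deleted and Hoxa9-Meis1 leukemias, 4 with all arrays, was 2 to 3 when 1 array was left out. Between floxed and Hoxa9-Meis1 leukemias it was 1 (Bcl2l1) with the mean of probe sets, against 0. Differences that changed sign were all of genes that did not pass. With deleted replicate 6 and floxed replicate 5 left out together, Mcl1 and Pmaip1 differed between deleted and floxed leukemias by 0.14 and 0.12, and Bcl2l11 between floxed and Hoxa9-Meis1 leukemias by -0.060; that setting also gave Bak1 a call between deleted and Hoxa9-Meis1 leukemias (0.56, limma adjusted p = 0.0305). The mean of probe sets turned Bcl2l11 between floxed and Hoxa9-Meis1 leukemias to -0.22, and quantile normalization turned Bcl2l1 there to -0.028. Leaving out 1 array moved differences between deleted and floxed leukemias from -0.28 to 0.12 for Mcl1, from -0.086 to 0.17 for Bcl2l2 and from -0.20 to 0.29 for Bcl2l11, and differences between floxed and Hoxa9-Meis1 leukemias from -0.066 to 0.19 for Bcl2l1, from -0.078 to 0.36 for Bak1 and from -0.060 to 0.44 for Bcl2l11. The causes of these changes were not tested. With the replicate number as a block, 2 members were called between deleted and floxed leukemias, as without it: Bcl2 (limma adjusted p = 0.00226) and Bid (0.00255); Tnfsf10 was at 0.0546. Same-numbered arrays did not deviate together (correlations 0.033, 0.053 and 0.0086), so no pairing by number was detected, and the labels state none. Gadd45a between deleted and floxed leukemias did not pass without deleted replicate 6 and floxed replicate 5 together (limma adjusted p = 0.0824), and Tnfsf10 did not pass there (0.18), with the mean of probe sets (0.114) or with a pseudocount of 32 (0.0517). Dim probe sets such as 1426050_at of Bcl2l1 lie close to background and limit what can be said of them.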
